A study of Mus musculus with 12 samples.

Results

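Annexins and S100 proteins are described here as a set of 10 genes from 2 families of calcium-linked proteins, chosen by name: the annexins *Anxa1*, *Anxa2*, *Anxa3*, *Anxa5* and *Anxa13* and the S100 genes *S100a4*, *S100a6*, *S100a10*, *S100a11* and *S100a14*. Of the 10 names, 9 had a row among the 25676 genes of the table, and *Anxa13* was not analysed here. RNA from whole liver was sequenced in 12 C57BL/6 mice aged 3 to 4 months, 1 library a mouse. The 6 KO mice lacked *Yap1* by Cre recombinase under the *Foxa3* promoter, which is active in the embryonic endoderm that forms hepatocytes and bile ducts, and the 6 others were labelled WT. Each genotype held 3 males and 3 females, which gave 4 groups of 3 mice. Whether the WT mice carried Cre or floxed alleles is not given in the sources used here. In bulk liver, a change in the number of cells of a type and a change in RNA per cell cannot be told apart.

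Annexins are cytosolic proteins that bind acidic membrane phospholipids when calcium rises, and they take part in membrane repair, vesicle traffic and the anchoring of actin to membranes. S100 proteins are small dimeric calcium sensors of the EF-hand type. Several of them dock on the N-terminal tails of annexins: S100A10 joins annexin A2 in a heterotetramer that sits under the plasma membrane and binds plasminogen at the cell surface, and S100A11 binds annexin A1. In tissues, annexin A5 is abundant in many cell types, annexin A1 and S100A4 are made by leukocytes and mesenchymal cells, and S100A14 and annexin A13 are typical of epithelia.

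Values are TPM, the share of a library's transcripts scaled to 1000000 and corrected for gene length, so levels of different genes can be set side by side. *Yap1* was between 23.0 and 34.9 TPM in the 6 WT libraries and between 0.994 and 3.11 TPM in the 6 KO libraries. Genotype differences are KO minus WT on the log2(TPM + 1) scale with sex as a covariate. They were tested with limma over 12278 genes with a mean of at least 0.5 TPM, and called at a Benjamini-Hochberg adjusted p under 0.05. Most genes moved upward together on this scale, with a median of 0.35 over all tested genes, against -0.04 after the libraries were rescaled by median-of-ratios factors. Rescaled differences are therefore given beside those on deposited values for the members and the related genes named. Replicates were separate mice, and the 12 pairs of libraries within groups correlated at 0.967 to 0.990 across genes.

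In WT liver *S100a10* was the most abundant member and in KO liver *Anxa5* was. Mean levels in WT were 160.2 TPM for *S100a10*, 56.0 for *Anxa5*, 10.9 for *S100a11*, 10.7 for *Anxa2*, 2.46 for *Anxa1*, 1.81 for *S100a6*, 1.58 for *Anxa3* and 0.604 for *S100a4*. The WT ranges of *S100a10* and *Anxa5* did not overlap each other, nor did those of *Anxa5* and *S100a11*, while *S100a11* and *Anxa2* lay within each other's spread. In KO the order was *Anxa5* at 385 TPM, *S100a10* at 325, *Anxa2* at 159, *S100a11* at 141, *S100a6* at 8.44, *Anxa1* at 7.15, *S100a4* at 5.22 and *Anxa3* at 5.05. In KO the ranges of *Anxa5* and *S100a10* overlapped, as did those of *Anxa2* and *S100a11* and those of the 4 low members. Summed over the members, the level was 168 to 324 TPM in WT and 897 to 1198 TPM in KO libraries. *S100a10* held 56.1 to 77.1% of that sum in WT and 29.0 to 34.1% in KO.

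The 8 members that passed the level filter were all higher in KO, with a median log2 difference of 1.81 (1.51 rescaled). For comparison, 50.1% of all tested genes were called higher on deposited values and 4.82% lower (54.9% in all), and 20.9% higher and 18.7% lower after rescaling (39.6% in all). The members were chosen with earlier results of these data known. This and later counts of members are therefore a description and no test against such shares. The differences ran from 1.07 for *S100a10* to 3.78 for *Anxa2*. On deposited values, every KO library lay above every WT library in 6 of the 8, which held for 28.7% of all tested genes. *Anxa1* and *S100a4* overlapped. Also on deposited values, all 8 had KO above WT without overlap within males, as did 50.8% of all tested genes. Within females 7 did, as did 43.5%. Overlap was not counted after rescaling, where *S100a10* no longer separated. Each of the 8 had a mean above 0.5 TPM in both genotypes, but for *S100a4* the WT mean of 0.604 TPM rested on 1 library. That was WT female 1 at 2.16 TPM, and the WT median of *S100a4* was 0.356 TPM. *S100a14* did not pass the filter.

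**Figure D1:**
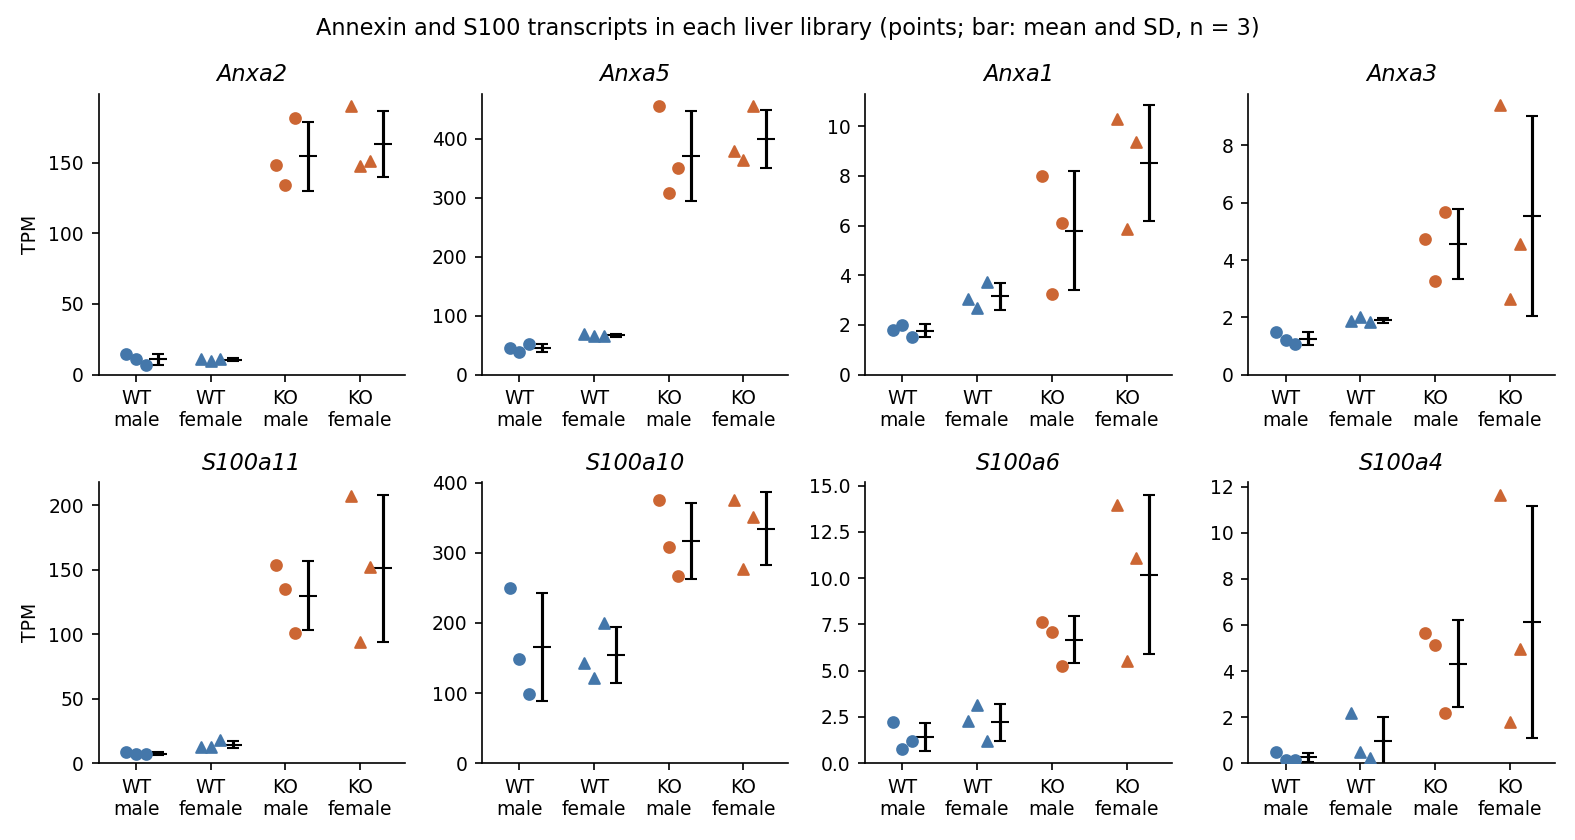
TPM (linear axis from 0) of the 8 tested members in each liver, by group; blue marks WT, orange KO, circles males and triangles females, and the bar beside each group is its mean and SD (n = 3), cut at 0 for S100a4 in WT females. Anxa2 sits between 7.18 and 14.7 TPM in WT and between 134 and 190 TPM in KO, while S100a4 in WT female 1 (2.16 TPM) reaches into the KO range.

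*Anxa2*, which encodes the membrane and actin binding partner of S100A10, had the largest difference of the members in the fit over both sexes on log2(TPM + 1). In males alone, and in the authors' deposited table, *S100a11* was ahead of it. *Anxa2* is ENSMUSG00000032231, a protein-coding gene on chromosome 9 from 69453620 to 69491795 on the plus strand of GRCm38. Its level was 14.7, 10.8 and 7.18 TPM in the WT males, 11.2, 9.50 and 10.97 TPM in the WT females, 148, 134 and 181 TPM in the KO males and 190, 148 and 151 TPM in the KO females. The lowest KO library was far above the highest WT library in either sex. The log2 difference was 3.78 (SE 0.147, limma adjusted p = 5.58e-10), or 3.34 rescaled. A log2 difference of at least 3 with a call was found for 0.725% of tested genes. In the authors' deposited table *Anxa2* has a log2 fold change of 3.33. An opposite-strand transcript, *Gm16144*, overlaps the gene, as does *Mir3109* on the same strand, and use of strand in counting is not given in the sources used here. Of the other members, *Anxa1* is overlapped by *1500015L24Rik* on the opposite strand. *Anxa3*, *Anxa5* and *S100a4* are overlapped by *Gm42603*, *Mir7009* and *Gm42674* on the same strand.

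*S100a11*, whose product binds the tail of annexin A1, was close behind in the fit over both sexes (ENSMUSG00000027907, chromosome 3, 93520488 to 93526287, plus strand). It stood at 8.56, 6.86 and 6.89 TPM in WT males and at 12.7, 12.6 and 17.7 TPM in WT females. In KO it stood at 154, 135 and 101 TPM in males and at 208, 93.8 and 152 TPM in females. WT males were all below WT females, and all KO libraries were above both. The log2 difference was 3.599 (SE 0.200, limma adjusted p = 1.31e-08), or 3.16 rescaled, and 3.53 in the authors' deposited table.

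The starts of these genes are shown because *Anxa2* and *S100a11* had the largest differences on the log2(TPM + 1) scale and like levels in KO. RefSeq promoters (GRCm38.p6, 250 bases before to 50 bases after the start) were found for 6 members and searched for TGANTCA, the motif of AP-1 factors, and for GGAATG, the core bound by the TEAD partners of YAP1, on both strands, with no overlap between matches of the 2 motifs. TGANTCA occurred in 7.81% of all 32851 promoters and in 5.40% of those of tested genes. GGAATG occurred in 14.7% and 12.3%. The *Anxa2* promoter (chr9:69453433-69453732, plus strand) held 1 TGANTCA match, starting 95 bases before the start, and the *S100a11* promoter (chr3:93520246-93520545, plus strand) held 2, starting 136 and 38 bases before it. The *Anxa1* promoter (chr19:20390622-20390921, minus strand) held the reverse complement of GGAATG, starting 236 bases before the RefSeq start. GENCODE places the start of *Anxa1* farther upstream, at 20390944. By that position the whole window and the match lie inside the gene. The *Anxa5* promoter (chr3:36475838-36476137, minus strand), shown as a strongly changed member, held neither, and nor did those of *S100a4* and *S100a6*. Matches also lay in promoters of family genes that were not called: *Anxa10*, listed at 0 in 11 of 12 libraries, held 2 TGANTCA matches, 1 of the promoters of *S100a16* held 1, and *S100a7a*, listed at 0 in 11 of 12 libraries, held 3 matches to GGAATG. *S100z*, listed at 0 throughout, and 1 of the promoters of *S100a3* each held 1 match to GGAATG. Capitals mark the matches, which are letters and not shown to be bound.

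Anxa2: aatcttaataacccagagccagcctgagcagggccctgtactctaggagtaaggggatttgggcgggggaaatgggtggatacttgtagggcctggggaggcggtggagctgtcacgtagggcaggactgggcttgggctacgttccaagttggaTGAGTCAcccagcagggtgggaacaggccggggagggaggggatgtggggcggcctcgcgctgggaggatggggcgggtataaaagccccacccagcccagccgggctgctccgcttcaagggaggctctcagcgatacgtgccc
S100a11: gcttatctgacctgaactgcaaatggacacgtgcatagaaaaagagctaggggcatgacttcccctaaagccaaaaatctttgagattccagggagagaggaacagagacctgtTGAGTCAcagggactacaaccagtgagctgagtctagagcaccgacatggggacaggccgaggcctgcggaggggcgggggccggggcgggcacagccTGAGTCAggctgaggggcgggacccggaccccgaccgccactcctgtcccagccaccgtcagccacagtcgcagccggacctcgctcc
Anxa1: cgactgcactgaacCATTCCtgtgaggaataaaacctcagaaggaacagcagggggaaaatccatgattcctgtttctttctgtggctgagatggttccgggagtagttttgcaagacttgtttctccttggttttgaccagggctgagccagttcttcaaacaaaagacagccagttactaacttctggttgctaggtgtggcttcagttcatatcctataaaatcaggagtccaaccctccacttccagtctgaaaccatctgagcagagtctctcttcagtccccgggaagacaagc
Anxa5: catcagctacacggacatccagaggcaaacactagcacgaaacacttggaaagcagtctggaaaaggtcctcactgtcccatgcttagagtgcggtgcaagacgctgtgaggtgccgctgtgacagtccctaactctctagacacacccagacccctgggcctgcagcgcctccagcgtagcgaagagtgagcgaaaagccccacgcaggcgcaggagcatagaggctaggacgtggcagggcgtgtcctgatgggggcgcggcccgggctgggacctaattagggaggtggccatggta

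*Anxa5*, the annexin used in the laboratory to detect exposed phosphatidylserine, was an abundant member in both genotypes (ENSMUSG00000027712, chromosome 3, 36448923 to 36475894, minus strand). WT males had 44.9, 39.1 and 51.4 TPM and WT females 69.8, 64.8 and 65.8 TPM. KO males had 456, 308 and 351 TPM and KO females 380, 363 and 455 TPM. The genotypes did not overlap, and the KO libraries of the sexes lay among each other. This was a log2 difference of 2.78 (SE 0.128, limma adjusted p = 2.45e-09), or 2.32 rescaled, and 2.46 in the authors' deposited table.

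*Anxa1* and *Anxa3* were low genes with smaller differences. *Anxa1* encodes an annexin that dampens leukocyte recruitment through formyl peptide receptors (ENSMUSG00000024659, chromosome 19, 20373428 to 20390944, minus strand). It was at 1.80, 2.02 and 1.51 TPM in WT males, 3.04, 2.67 and 3.74 TPM in WT females, 8.02, 3.25 and 6.09 TPM in KO males and 10.3, 5.88 and 9.38 TPM in KO females. KO male 2 lay below WT female 3, so the genotypes overlapped over the sexes, although not within either sex. KO minus WT was 1.20 on the log2 scale (SE 0.180, limma adjusted p = 0.000101), or 0.84 rescaled. *Anxa3* (ENSMUSG00000029484, chromosome 5, 96793339 to 96845966, plus strand) was at 1.504, 1.20 and 1.07 TPM in WT males and 1.88, 1.996 and 1.83 TPM in WT females. In KO it was at 4.73, 3.27 and 5.68 TPM in males and 9.39, 2.64 and 4.57 TPM in females, and KO female 1 alone was above 6 TPM. The log2 difference was 1.16 (SE 0.209, limma adjusted p = 0.000441), or 0.82 rescaled.

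*S100a10*, which encodes the S100 protein that pairs with annexin A2 and whose EF-hands have lost calcium binding, had the smallest difference in the fit over both sexes (ENSMUSG00000041959, chromosome 3, 93555080 to 93564643, plus strand). It stood at 250, 149 and 99.0 TPM in WT males, 143, 122 and 199 TPM in WT females, 375, 308 and 267 TPM in KO males and 375, 276 and 351 TPM in KO females. On deposited values all KO libraries were above all WT libraries, but the highest WT library, male 1, came close to the lowest KO library, male 3. Rescaling divided WT male 1 by 0.820 and KO male 3 by 1.34. WT male 1 then lay above KO male 3, so the genotypes overlapped after rescaling. In females alone *Anxa3* had the smaller difference (1.04 against 1.13). The log2 difference was 1.07 (SE 0.199, limma adjusted p = 0.000547). Rescaling lowered it to 0.61 with a limma adjusted p of 0.0437, and the authors' deposited table lists 0.43 with an FDR of 0.16.

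The pair that forms the annexin A2 heterotetramer therefore moved unequally, which was examined as a ratio within each library, a quantity that no scaling of libraries changes. The ratio of *S100a10* to *Anxa2* TPM was 12.7 to 18.2 in the WT libraries, with a median of 13.8, and 1.47 to 2.53 in the KO libraries, with a median of 2.14. The groups did not overlap. The log2 difference in the ratio was -2.83. The ratio of *S100a10* to *S100a11* went from 9.70 to 29.2 in WT to 1.81 to 2.95 in KO (log2 difference -2.65). The ratio of *Anxa5* to *Anxa6* was 0.424 to 0.651 in WT and 1.41 to 2.29 in KO (log2 difference 1.75), and that of *Anxa2* to *Anxa6* was 0.0841 to 0.161 in WT and 0.680 to 1.14 in KO (log2 difference 2.86). These 4 ratios were chosen after the values were seen and are given as a description, with no test.

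**Figure D2:**
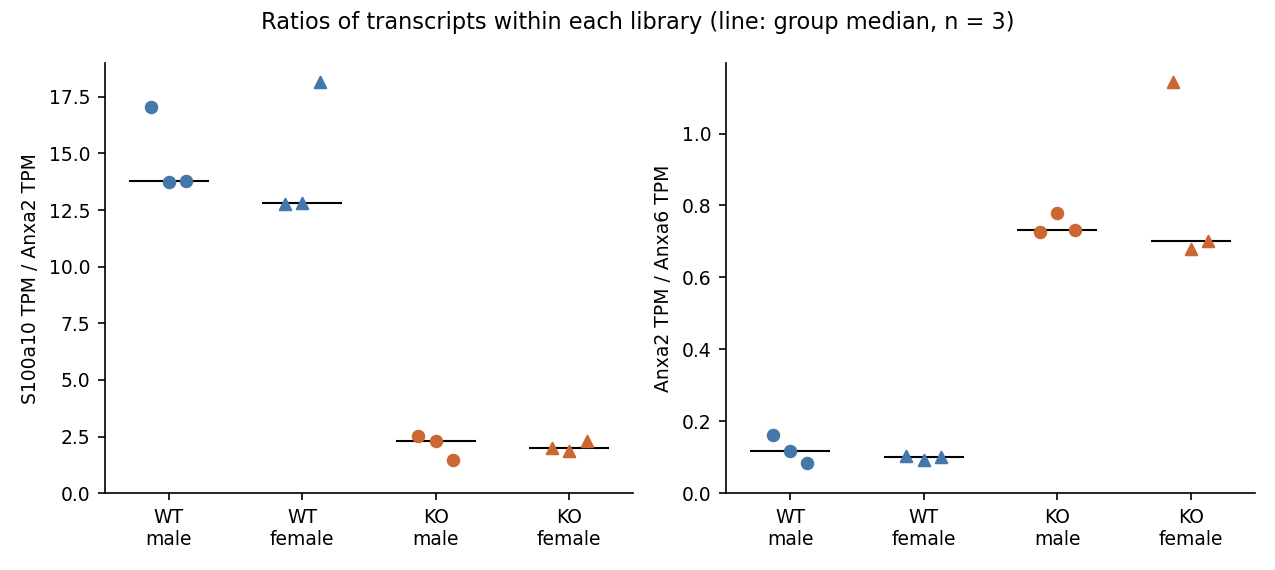
Ratio of S100a10 to Anxa2 TPM (left) and of Anxa2 to Anxa6 TPM (right) in each library, on linear axes from 0, by group, with the group median as a line (n = 3); colours and symbols are those of the plot of TPM by sample. The left ratio is at least 12.7 in WT and at most 2.53 in KO, and the right one at most 0.161 in WT and at least 0.680 in KO.

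*S100a6* and *S100a4* lie close together on chromosome 3, on either side of *S100a5*. *S100a6*, calcyclin, marks many proliferating and epithelial cells (ENSMUSG00000001025, 90612882 to 90624181, plus strand). It was at 2.24, 0.773 and 1.21 TPM in WT males, 2.30, 3.13 and 1.18 TPM in WT females, 7.66, 7.12 and 5.27 TPM in KO males and 13.97, 5.50 and 11.1 TPM in KO females. The genotypes did not overlap, and the log2 difference was 1.74 (SE 0.225, limma adjusted p = 2.89e-05), or 1.39 rescaled. *S100a4*, a motility protein of leukocytes and fibroblasts (ENSMUSG00000001020, 90603771 to 90606045, plus strand), was at 0.468, 0.140 and 0.131 TPM in WT males and 2.16, 0.485 and 0.243 TPM in WT females. In KO it was at 5.65, 5.14 and 2.16 TPM in males and 11.6, 1.78 and 4.97 TPM in females. WT female 1 overlapped KO female 2. Over both sexes the log2 difference was 1.88 (SE 0.337, limma adjusted p = 0.000423), or 1.63 rescaled. The value of this low gene depended on the pseudocount: with 0.1 in place of 1 it was 3.17, and 3.69 in males and 2.65 in females, against 2.80 for *Anxa5* over both sexes. The authors' deposited table gives a log2 fold change of 3.32. *S100a4* had the highest coefficient of variation of the tested members in both genotypes, 128.6% in WT and 67.7% in KO, where that of *Anxa2* was 13.8%.

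*S100a14* (ENSMUSG00000042306, chromosome 3, 90526856 to 90528837, plus strand), the member most typical of epithelia, was listed at 0 TPM in 9 of 12 libraries and reached 0.0702 TPM in WT male 3, 0.197 TPM in KO male 2 and 0.105 TPM in KO male 3. Fitted without the level filter, its log2 difference was 0.05 (limma adjusted p = 0.349). The bile duct keratins were low as well: *Krt19* was at 0.738 to 2.26 TPM in WT and 0.0552 to 2.17 TPM in KO, and *Krt7* at most at 0.628 TPM.

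Of the S100 genes on chromosome 3, those from *S100a1* to *S100a9* lie within 181.3 kb, and the difference varied from gene to gene among them. *S100a1*, a calcium sensor best known from muscle, was at 170 ± 43.6 TPM (SD, n = 6) in WT and 175 ± 49.3 TPM in KO (log2 difference 0.04, limma adjusted p = 0.891; -0.43 rescaled, adjusted p = 0.115). Its head-to-head neighbour *S100a13*, which assists export of proteins without a signal peptide, differed by -0.17 (limma adjusted p = 0.576), or -0.62 rescaled, where it was called lower (adjusted p = 0.0433). *S100a16* differed by 0.23 (limma adjusted p = 0.210), or -0.22 rescaled (adjusted p = 0.169). *S100a3*, *S100a5* and *S100a7a*, 46.2, 94.1 and 139.6 kb from the start of *S100a1*, were listed at 0 in most libraries of both genotypes, with at most 0.219 TPM. *S100a5* lies between *S100a4* at 89.4 kb and *S100a6* at 98.5 kb, both of which rose. At the far end, *S100a8* and *S100a9*, the calprotectin subunits of neutrophils, rose by 1.48 and 1.43 on deposited values (limma adjusted p = 0.0194 and 0.0382). Rescaled, they differed by 1.13 and 1.05 and neither passed (limma adjusted p = 0.104 and 0.179), and neither passed without KO female 1 and WT female 3 (adjusted p = 0.0914 and 0.131). *S100a11* and *S100a10* lie apart from these, about 3006 and 3041 kb from *S100a1*.

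**Figure D3:**
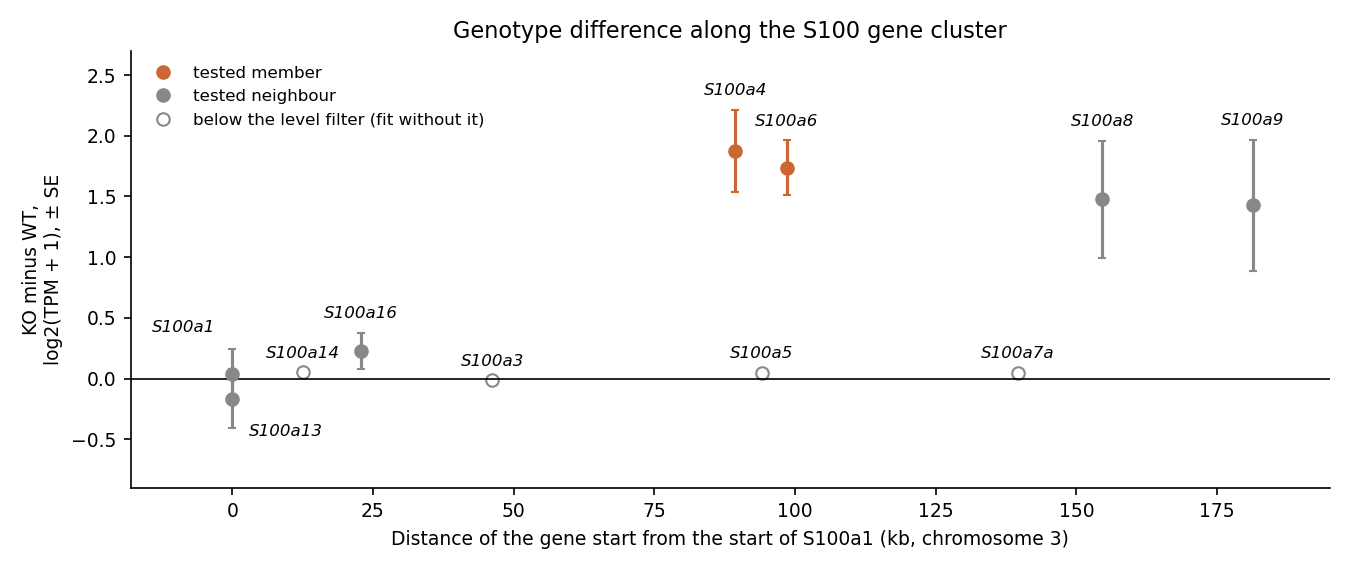
Genotype difference (KO minus WT, log2(TPM + 1), with SE) of the S100 genes of the cluster against the distance of each gene start from that of S100a1 in kb; orange marks members, grey their neighbours, and open circles genes below the level filter, fitted without it. S100a4 (1.88) and S100a6 (1.74) stand high on either side of S100a5 (0.05), and S100a1, S100a13 and S100a16 are at 0.04, -0.17 and 0.23 on deposited TPM (-0.43, -0.62 and -0.22 rescaled, not drawn).

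The other annexins differed less than *Anxa2* and *Anxa5*. Of 7, 5 passed the level filter and 4 rose, where 50.1% of all tested genes were called higher (20.9% rescaled): *Anxa6*, the large annexin of late endosomes, from 97.9 ± 9.82 to 204 ± 30.9 TPM (SD, n = 6; log2 difference 1.04, limma adjusted p = 6.74e-06), *Anxa9* by 0.96, *Anxa4* by 0.84 and *Anxa7* by 0.80. After rescaling these were 0.58, 0.70, 0.38 and 0.34, still called. In the authors' deposited table *Anxa9* and *Anxa4* have 1.37 and 0.50, each with an FDR of 0.01, whereas *Anxa6* has 0.49 with an FDR of 0.07 and *Anxa7* 0.40 with an FDR of 0.13. *Anxa11*, a tether of RNA granules to lysosomes, was at 29.9 ± 5.17 TPM in WT and 28.4 ± 3.08 TPM in KO, a log2 difference of -0.06 (limma adjusted p = 0.666). After rescaling *Anxa11* was lower in KO by -0.51 (limma adjusted p = 0.00121), and the authors' deposited table has -0.51 with an FDR of 0.01. *Anxa8* and *Anxa10* did not pass the filter, with at most 1.16 and 0.105 TPM. Of the 11 other S100 genes, 6 were tested and 3 rose on deposited values, which is the share of all tested genes called higher (50.1%). They were *S100a8*, *S100a9* and *S100g*, the vitamin D dependent calbindin (0.68, limma adjusted p = 0.0322; 0.52 rescaled, adjusted p = 0.0987). *S100g* passed the level filter only through KO, with a mean of 0.249 TPM in WT and 1.14 TPM in KO. After rescaling none of the 6 was called higher and *S100a13* was called lower (-0.62, limma adjusted p = 0.0433). *S100b* and *S100z* did not pass the filter. The median log2 difference was 0.84 over the 5 other annexins and 0.45 over the 6 other S100 genes, beside 0.35 over all tested genes. Rescaled, these medians were 0.38, 0.15 and -0.04.

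**Figure D4:**
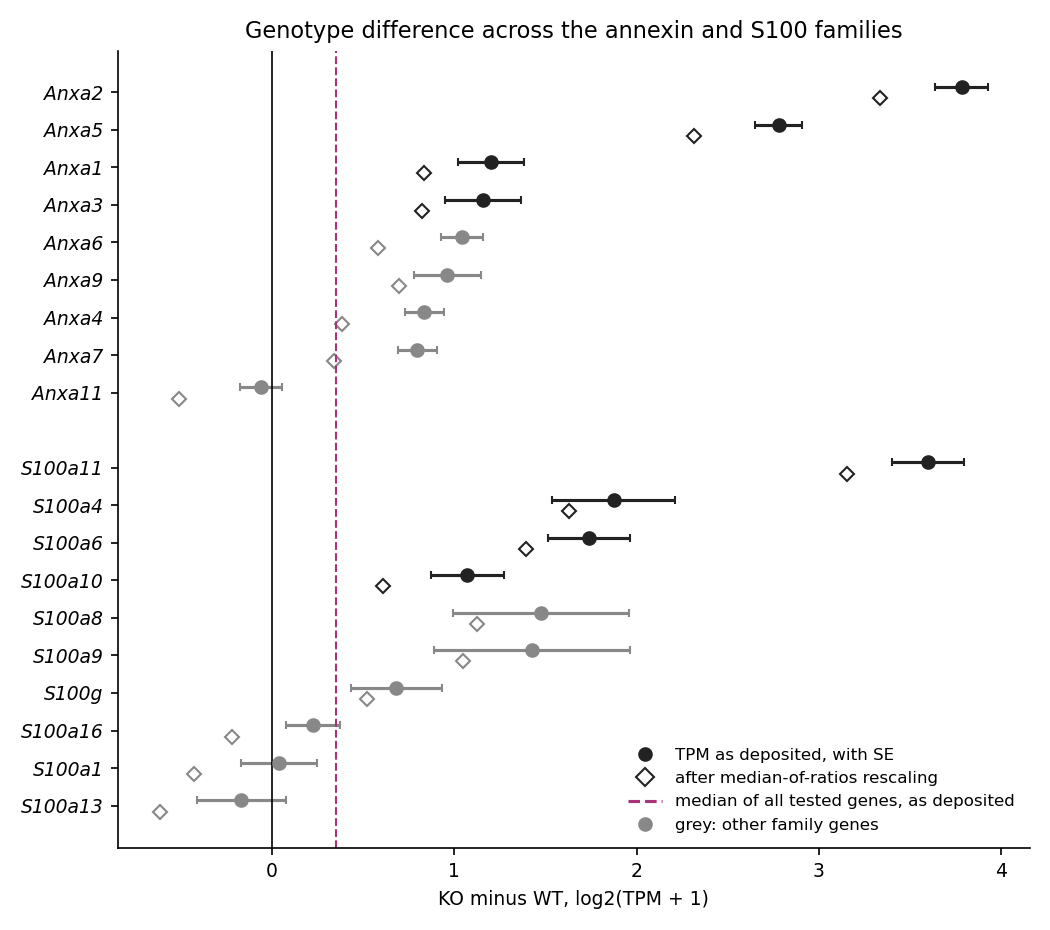
KO minus WT difference in log2(TPM + 1) for each tested annexin and S100 gene on deposited TPM (circles, with SE) and after rescaling (diamonds); members are black and other family genes grey, and the dashed line is the median of all tested genes on deposited TPM (0.35). Anxa2 (3.78) and S100a11 (3.599) lie farthest to the right, and the diamonds of Anxa11, S100a1, S100a13 and S100a16 lie left of 0.

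Binding partners and receptors were read from a list of 19 genes, of which 17 were tested, 11 rose and none fell on deposited values (7 rose and 1 fell after rescaling), with a median of 0.51 (0.32 rescaled). Of the 11, 5 (*Plat*, *Plaur*, *Myof*, *Pla2g4a* and *Tlr4*) had a WT mean below 0.5 TPM and passed the level filter only through KO, so the count does not support a change of the list. Over all tested genes 50.1% were called higher on deposited values and 20.9% after rescaling, with a median of 0.35 on deposited values and -0.04 after rescaling. *Plat*, tissue plasminogen activator, rose from 0.415 ± 0.230 to 5.90 ± 1.78 TPM (SD, n = 6; log2 difference 2.26, limma adjusted p = 8.00e-08; 2.002 rescaled). *Plaur*, the urokinase receptor, rose by 1.60 (limma adjusted p = 2.02e-05; 1.38 rescaled). *Ahnak*, the giant scaffold that binds the annexin A2 and S100A10 complex, rose by 1.55 (limma adjusted p = 3.34e-06; 1.21 rescaled), and *Myof*, a ferlin of membrane repair, by 1.40 (limma adjusted p = 1.39e-06; 1.16 rescaled). The authors' deposited table has larger log2 fold changes for these low genes: 3.70 for *Plat*, 2.75 for *Plaur*, 1.71 for *Ahnak* and 2.24 for *Myof*. Plasminogen itself, *Plg*, made by hepatocytes, was at 1674 ± 204 TPM in WT and 1832 ± 240 TPM in KO, a log2 difference of 0.13 (limma adjusted p = 0.382). The direction for *Plg* turned after rescaling, to -0.34 (limma adjusted p = 0.0522), and the authors' deposited table has -0.46 with an FDR of 0.24. The annexin A1 receptors *Fpr1* and *Fpr2* rose by 0.71 and 0.65 on deposited values (limma adjusted p = 0.0105 and 0.0373) and did not pass after rescaling (0.40 and 0.46; adjusted p = 0.129 and 0.153).

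Within males all 8 tested members were called higher, beside 43.3% of all genes, and within females all 8, beside 29.1%. After rescaling 7 were called in males (13.9% of all genes) and 6 in females (15.2%). The exceptions were *S100a10* in males (0.44, limma adjusted p = 0.344), and in females *S100a10* (0.78, limma adjusted p = 0.0889) and *Anxa3* (0.76, limma adjusted p = 0.0529). *Anxa2* rose by 3.75 in males and 3.82 in females (3.195 and 3.48 rescaled), *Anxa5* by 3.002 and 2.56 (2.43 and 2.21 rescaled), and *S100a11* by 3.94 and 3.26 (3.40 and 2.91 rescaled). The genotype by sex interaction (male minus female) was called for 0 of the 8 by limma, with 0 at an unadjusted p under 0.05, against 0.912% of all genes called. It was 0.68 (SE 0.363, limma adjusted p = 0.612) for *S100a11* and 0.45 (SE 0.231, limma adjusted p = 0.609) for *Anxa5*, so differences between the sexes of that size were not resolved with 3 mice a group.

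The females' calls for *Anxa3* and *S100a4* rested on few animals. Without KO female 1 the *Anxa3* difference in females fell from 1.04 to 0.63 (limma adjusted p = 0.0605). For *S100a4* it went from 1.72 to 1.18 without KO female 1, to 1.58 without WT female 2 and to 1.45 without WT female 3 (limma adjusted p = 0.0652, 0.0588 and 0.0660). KO female 1 had the highest KO level of 7 of the 8 tested members. Of the markers of other cells named in this text, it also had the highest KO level of *Lyz2* (421 TPM), *Spp1* (702 TPM) and *Trem2* (21.8 TPM). It did not have that of *Krt7*, *Krt19* or *Ly6g*, and any link to the members was not tested. In the labels, KO female 1 and WT female 3 carry lower animal numbers than the other mice, and nothing in the sources used here says what the numbers stand for. Without these 2 mice the 8 members were still called over both sexes, with log2 differences of 1.01 to 3.74, and 6 were called in females. WT male 2, whose library number is apart from the others, could be left out without the loss of any of these calls.

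In WT, 4 tested members (*Anxa1*, *Anxa3*, *Anxa5* and *S100a11*) had all 3 males below all 3 females, as did 27.5% of all tested genes. *S100a11* was at 7.44 ± 0.977 TPM in WT males and 14.3 ± 2.90 TPM in WT females (SD, n = 3), a male minus female log2 difference of -0.85 (limma adjusted p = 0.0723), and *Anxa5* at 45.1 ± 6.16 and 66.8 ± 2.63 TPM (-0.56, limma adjusted p = 0.0621). None of the 8 passed in WT with limma (3 at an unadjusted p under 0.05, 1 after rescaling), beside 5.74% of all genes. In KO none passed either, with 0 at an unadjusted p under 0.05, beside 0.0814% of all genes, and male minus female differences were between -0.52 and -0.08. The median male minus female difference in WT was -0.48 over the 8 members and -0.19 over all tested genes. Among the marker lists described next it ran from -0.76 for macrophages (2 of 10 called lower) to 0.30 for hepatocytes (none of 8 called). Rescaled, these medians were -0.32, -0.01, -0.60 and 0.52, with no call in these lists. Any link between them was not tested.

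Markers of other cells moved with genotype, and their part in the members' differences was not tested. The counts below stand beside 50.1% of all tested genes called higher and 4.82% lower on deposited values, and 20.9% and 18.7% after rescaling. Among the genes counted as risen, 2 macrophage, 2 cholangiocyte, 1 neutrophil and 2 mesothelial markers had a WT mean below 0.5 TPM and passed the level filter only through KO. Of 10 macrophage markers 10 rose (10 after rescaling), with a summed level of 81.4 to 278 TPM in WT and 525 to 1068 TPM in KO. *Lyz2* was at 42.5 ± 22.1 and 275 ± 92.0 TPM (SD, n = 6), and *Trem2* at 0.519 ± 0.338 and 14.5 ± 5.57 TPM. Of 10 stellate cell and fibroblast markers 8 rose (5 and 1 lower after rescaling), their sum going from 64.8 to 177 TPM in WT to 201 to 491 TPM in KO. Of 7 tested cholangiocyte markers 5 rose and 1 fell (4 and 1 after rescaling), with sums of 37.8 to 68.5 and 273 to 743 TPM that were mostly *Spp1*, at 33.8 ± 11.2 TPM in WT and 492 ± 195.1 TPM in KO. Of 4 tested neutrophil markers 2 rose (1 after rescaling), with sums of 0.449 to 6.68 and 5.74 to 10.8 TPM, and *Ly6g* was listed at 0 in every WT library and in 4 of 6 KO libraries, with at most 0.199 TPM. Endothelial markers summed to 46.6 to 71.4 TPM in WT and 30.4 to 116 TPM in KO (2 of 8 rose, 1 fell; 1 and 2 after rescaling), mesothelial ones to 1.77 to 9.48 and 3.95 to 14.7 TPM (3 of 5 rose, 2 after rescaling), and T and B cell ones to 2.33 to 7.55 and 2.39 to 7.73 TPM (none of 5 called; after rescaling also none). Hepatocyte markers summed to 89148 to 114085 TPM in WT and 66582 to 89029 TPM in KO, with 2 of 8 higher and 2 lower (0 and 3 after rescaling).

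The profiles most like that of *Anxa2* over the 12 libraries, by the root mean square difference of log2(TPM + 1) after centring on the WT mean, were those of *Mtmr11* (0.235), *Lrtm2* (0.335), *Cd9* (0.339), *Nid1* (0.339) and *Pygb* (0.341). *S100a10* was 1299th of 12277 genes in likeness to *Anxa2*, at 1.93, and *Anxa2* was 12104th in likeness to *S100a10*. Both ranks come from this same distance, which grows with the gap between the genotype differences of the genes (3.78 and 1.07). They are thus no evidence separate from those differences. Nearest to *S100a10* were *Ip6k2* (0.217), *Procr* (0.226), *Gmds* (0.228), *Rab32* (0.232) and *Hjv* (0.234). All had log2 differences between 0.89 and 1.15, since the measure favours genes of like difference.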

How the data were processed

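The members, gene lists and tests were chosen with earlier results of these data known. The authors deposited 1 table of 25676 genes with TPM for each of 12 livers, each column summing to 1000000, and their own KO against WT fold change, log2 fold change and FDR p-value rounded to 2 decimals for 17332 genes, per the file headers. The submitters' processing notes name edgeR and GRCm38, without a role. Aligner, counter, annotation and strand are not given in the sources used here. TPM carries no read depth, so depth per library is unknown. Columns were matched to samples by their labels, with 0 unmatched columns of sample values, and replicates were numbered in accession order.

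Genes with a mean of at least 0.5 TPM were tested on log2(TPM + 1), which understates changes of low genes. limma 3.58.1 in R 4.3.3 (lmFit, eBayes with trend) was fitted with genotype and sex, and as 4 group means for effects within sex, the interaction and sex differences. It was tested on simulated data with as many raised as lowered genes. That setting does not bear on the upward shift of most genes in these data. Positions are those of GENCODE M21 (GRCm38), matched by Ensembl identifier. All members, both families, Yap1, partners past a log2 difference of 1 with Plg, the 5 nearest profiles and up to 3 markers a list were named. A few further markers and partners were named after their values were seen. Alternatives were other scalings, pseudocount, filters, trend, array weights, a covariate for the 2 mice with lower animal numbers, and left-out mice.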

Additional observations from a re-analysis of the deposited data

Results flagged for a closer look

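Among the 6 WT libraries, *S100a4* in WT female 1, at 2.16 TPM, lay far from the other 5, which were at most 0.485 TPM. It was 1 of 2 values picked out in 18 checks of the highest or lowest library among the 6 of a genotype, in which chance flags about 1 in 20. The other was *S100a14* in WT male 3, at 0.0702 TPM. The other 5 WT libraries were listed at 0, so any value above 0 in a single library would have been picked out, and that chance rate does not apply to it.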

How the results depend on the processing

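The members' log2 differences and interactions and the 8 counts of called members, family genes and partners were recomputed under 21 alternatives, 1 of them (without the 2 mice with lower animal numbers, KO female 1 and WT female 3) added after seeing the data. The count of 8 members called higher over both sexes held under all 21. No paired analysis was possible because replicate numbers follow accession order and pair no mice. For sex differences in WT, array weights gave 2 called members (*Anxa5* and *S100a11*) and leaving out 1 mouse gave 0 to 1; the call was *Anxa5* without WT male 3 or KO male 1, and *S100a11* without KO female 1 or KO female 2. The 7 other annexin and S100 genes called became 4 without KO female 1 and WT female 3 and 5 to 8 when 1 mouse was left out. The 11 partners called became 4 with a minimum mean of 2 TPM, when 9 were tested. The interactions, none of them called in any setting, changed sign: *Anxa1* (0.05) to -0.073 after rescaling, to -0.26 with array weights and to between -0.19 and 0.36 with 1 mouse left out, *Anxa2* (-0.07) to 0.014 without KO female 1 and WT female 3 and between -0.32 and 0.15, *Anxa3* (0.24) between -0.11 and 0.65, *S100a4* (0.31) between -0.24 and 0.85, *S100a6* (-0.06) to 0.11 with a pseudocount of 0.1, to 0.44 without KO female 1 and WT female 3 and between -0.41 and 0.19, and *S100a10* (-0.11) between -0.43 and 0.24. The cause was not tested. Without KO female 1 and WT female 3 *Anxa3* and *S100a4* were not called in females (0.62 and 0.91; limma adjusted p = 0.122 and 0.186). With no counts, precision at the low levels of *S100a4*, *S100a14* and *Anxa3* cannot be given.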
